A study of Mus musculus with 4 samples.

Results

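The class I antigen presentation genes described here are 10 genes, H2-K1, H2-D1, B2m, Tap1, Tap2, Tapbp, Psmb8, Psmb9, Nlrc5 and Erap1, chosen by name from the 13834 genes of an RNA-sequencing table of mouse peritoneal macrophages. All 10 were in the table and all 10 passed the filter on low counts that left 12542 genes for testing. The table held 4 samples, 2 from Dnmt1 fl/fl mice, whose Dnmt1 gene carries loxP sites and which the labels call wt, and 2 from Dnmt1 KO mice, which add Cre recombinase driven by the LysM promoter and so lose Dnmt1 in myeloid cells only. The methods give an age of 10 weeks for mice of both genotypes and an intraperitoneal injection of 2 ml of 4% thioglycolate broth 3 days before the cells were washed from the abdomen, so all 4 samples are elicited cells and none is a resident, uninjected population. The lavage cells were spun down and cultured, with no sort stated, and neither the number of mice behind a sample nor their sex is given. The p-values therefore measure the spread between these samples, which may be technical.

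Class I molecules display short peptides from inside the cell to CD8+ T cells. H2-K1 and H2-D1 encode the classical heavy chains and B2m the small light chain that every class I heavy chain of this kind needs. Peptides are cut by the proteasome, whose immunoproteasome form carries Psmb8 and Psmb9 in place of constitutive catalytic subunits, moved into the endoplasmic reticulum by the transporter Tap1-Tap2, loaded with the help of tapasin (Tapbp) and trimmed there by Erap1. Nlrc5 is the class I transactivator. It acts at class I promoters through proteins bound to a conserved module, of which the X2 box, a site for CREB and ATF proteins, is one element, while interferon gamma raises the whole pathway in macrophages.

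The upstream sequences are shown because 7 of the 10 genes lie in the MHC of chromosome 17 and because Dnmt1 maintains methylation at CpG sites. RefSeq promoter windows on GRCm38.p6, from 250 bases before to 50 bases after a start site, were matched by symbol for 8 of the 10 genes, all but Tap2 and Nlrc5. Below are the bases before the start of H2-K1 (chr17:34000348-34000597, minus strand), H2-D1 (chr17:35262844-35263093, plus strand) and B2m (chr2:122147437-122147686, plus strand), and the stretch between the divergent starts of Psmb9 and Tap1 (chr17:34187331-34187555, plus strand, read toward Tap1). Capitals mark TGACG (the X2 core), the run of GGGG, ATT and CCCC in H2-K1 and H2-D1 (the NF-kB site of class I enhancer A) and, in B2m, GAAA repeated after any 2 bases (an interferon-stimulated response element, ISRE), and no marked motifs overlap.
H2-K1: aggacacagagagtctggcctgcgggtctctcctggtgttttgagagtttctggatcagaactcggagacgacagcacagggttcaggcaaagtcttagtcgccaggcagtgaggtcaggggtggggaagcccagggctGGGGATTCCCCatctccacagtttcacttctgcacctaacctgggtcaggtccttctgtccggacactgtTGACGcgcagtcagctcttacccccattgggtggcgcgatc
H2-D1: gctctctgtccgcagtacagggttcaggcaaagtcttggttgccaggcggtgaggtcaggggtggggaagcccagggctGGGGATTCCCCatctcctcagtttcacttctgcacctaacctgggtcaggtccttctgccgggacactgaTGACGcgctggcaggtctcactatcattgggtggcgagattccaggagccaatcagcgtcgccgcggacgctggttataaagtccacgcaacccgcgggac
B2m: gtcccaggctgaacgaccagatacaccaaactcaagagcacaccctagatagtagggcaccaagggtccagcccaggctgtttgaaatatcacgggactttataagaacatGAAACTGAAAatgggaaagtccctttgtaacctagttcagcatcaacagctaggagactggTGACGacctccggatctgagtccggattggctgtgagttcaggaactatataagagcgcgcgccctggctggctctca
Psmb9-Tap1: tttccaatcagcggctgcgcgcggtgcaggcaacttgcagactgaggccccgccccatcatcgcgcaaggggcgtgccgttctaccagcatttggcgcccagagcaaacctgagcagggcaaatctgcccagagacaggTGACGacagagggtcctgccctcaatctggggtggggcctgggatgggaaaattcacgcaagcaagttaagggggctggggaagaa

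The heavy chain genes shared the same arrangement, with the NF-kB sequence beginning 111 bases before the H2-K1 start used here (125 before the other RefSeq start of that gene) and 171 before that of H2-D1, and TGACG 70 bases further on in each. That NF-kB sequence was found in the windows of 5 of the 27025 genes with a window (0.0185%), namely H2-K1, H2-D1, H2-Q6, Atg16l2 and Tfap2d. TGACG, read on both strands, was in the windows of 5 of 8 members (H2-K1, H2-D1, B2m, Tap1 and Psmb9) and of 23% of all genes with a window, and both motifs were chosen after the sequences had been read. Tap1 and Psmb9 share 1 copy, 86 bases before the Tap1 start, in the 225 bases that separate their starts. The ISRE letters, searched on both strands as the exact repeat described above, were in B2m and Erap1 and in 3.99% of all genes. Variant forms of the element were not searched. The lack of a match in the other windows, H2-K1 and H2-D1 included, therefore does not show that they lack an interferon response element. The gamma-activated site letters TTCNNNGAA were in Psmb8 alone among members and in 9.55% of all genes. The windows of the 8 members held 11 to 19 CpGs each, against a median of 8 and an upper quartile of 22 over all genes. These matches describe letters in a window and no binding or methylation was measured in these samples.

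The samples held 20228071 to 24198943 counts each. Dnmt1, the targeted gene, was at 86.6 and 67.0 CPM (counts relative to library size, with TMM scaling between samples) in Dnmt1 fl/fl and at 37.0 and 42.7 CPM in Dnmt1 KO samples, lower in both KO samples (log2 fold change -0.95, adjusted p = 1.00 from edgeR over all genes). Macrophage markers were abundant in every sample, with Csf1r between 1011 and 1126 CPM. Dnmt1 KO replicate 1 stood apart. The summed level of the 6 neutrophil markers in the table, of 10 listed, was 568 CPM there and 23.5 to 116 CPM in the other samples, and the 8 B cell markers summed to 184 CPM there against 401 to 611 CPM. The 6 resident large peritoneal macrophage markers summed to 143 CPM there against 334 to 385 CPM, and the 8 mesothelial and stromal markers to 78.7 against 29.2 to 46.3 CPM. The T and NK cell markers (10 of 10 in the table, 30.6 to 49.8 CPM), dendritic cell markers (8 of 8, 109 to 125 CPM) and eosinophil and mast cell markers (7 of 9, 13.9 to 20.1 CPM) did not set it apart in their sums. Itgax made up most of the dendritic cell sum, at 92.6 CPM in Dnmt1 KO replicate 1 against 58.2 to 81.0 CPM in the other samples. The other 7 dendritic cell markers were all lowest in Dnmt1 KO replicate 1. Mpo, Ngp, Camp and Stfa1 of the neutrophil list and Epx and Prg2 of the eosinophil list had no row. Of the 10 macrophage markers, Lyz2, the gene of the LysM promoter, was at 29531 and 28587 CPM in fl/fl and 11351 and 15745 CPM in KO samples, and the other 9 summed to 7152 and 7459 CPM in fl/fl and 7620 and 7163 CPM in KO samples, an overlapping range. Long transcripts were also low in Dnmt1 KO replicate 1. In the quartile of genes with the longest transcripts the median deviation from the gene's own mean was -0.28 on the log2 scale in Dnmt1 KO replicate 1 and 0.17 in Dnmt1 KO replicate 2, and in the shortest quartile it was 0.29 and -0.14. In Dnmt1 fl/fl replicates 1 and 2 it was 0.15 and -0.015 in the longest quartile and -0.13 and 0.0084 in the shortest. Values of the members and medians of the gene lists that turn on this library are therefore given with and without it, and the part of other cells or of transcript length in any result was not tested. In bulk RNA, fewer cells of a type and less RNA per cell cannot be told apart.

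None of the 10 genes passed the comparison of genotypes. By edgeR's quasi-likelihood test, with adjusted p under 0.05 as the threshold, 0 members were called, against 0 of 12542 genes (0.00%) over the table, and at an unadjusted p under 0.05 there were again 0 members, against 35 genes (0.279%). DESeq2 called 0 members and 1 gene at the adjusted threshold and limma-voom 0 members and 0 genes, with 0 members and 39 and 40 genes at an unadjusted p under 0.05. The log2 fold change of Dnmt1 KO over Dnmt1 fl/fl was above 0 for 8 of 10 members and its median was 0.20, while over all genes tested 50.9% were above 0 and the median was 0.0046. Without Dnmt1 KO replicate 1 the median of the members was 0.0895. In 4 members, Tap1, Tap2, Tapbp and Psmb9, both KO samples lay above both fl/fl samples, and in 0 both lay below. Over all genes tested the KO samples lay above in 8.14% and below in 8.56%. For 1 gene, exact permutation of 2 against 2 samples cannot give a two-sided p under 0.3333.

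**Figure D1:**
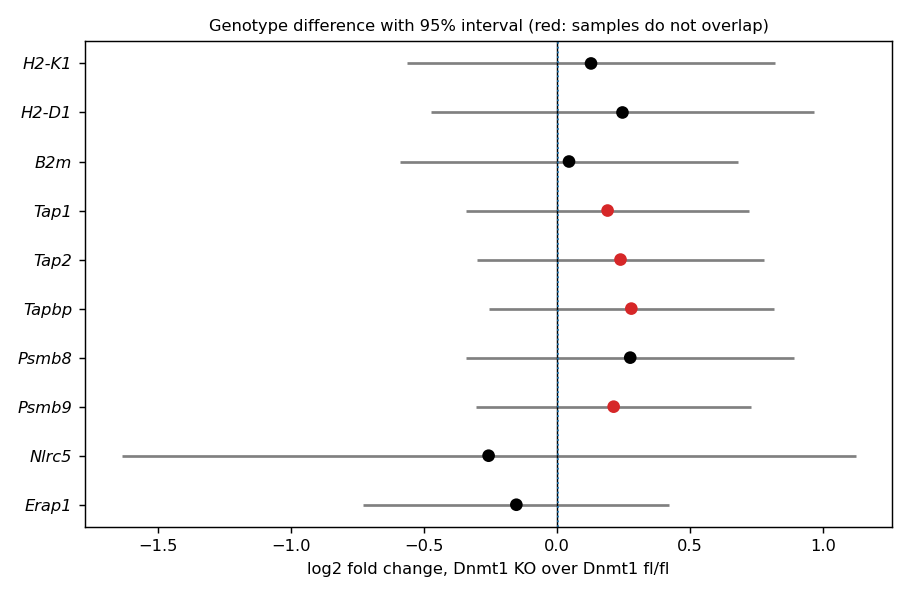
Log2 fold change of Dnmt1 KO over Dnmt1 fl/fl for each gene, with the 95% interval from edgeR as a horizontal line, the solid vertical line at 0 and the dotted line at the median of all genes (0.0046). All 10 intervals cover 0, from Tapbp at 0.28 to Nlrc5 at -0.26, and the 4 genes in red are those whose samples did not overlap.

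The class I chains were the most abundant members and their samples overlapped between genotypes. H2-D1 was at 6130 and 6668 CPM in Dnmt1 fl/fl and at 8678 and 6502 CPM in Dnmt1 KO macrophages. Only Dnmt1 KO replicate 1 was above the fl/fl samples, and the other KO sample lay between them. The log2 fold change of H2-D1 was 0.25 (95% interval -0.48 to 0.97), and it was 0.02 without Dnmt1 KO replicate 1 and 0.44 without Dnmt1 KO replicate 2.

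H2-K1 was at 2618 and 3178 CPM in Dnmt1 fl/fl and at 3530 and 2805 CPM in Dnmt1 KO macrophages. Its highest sample was again Dnmt1 KO replicate 1, with the other KO sample between the fl/fl samples. The log2 fold change of H2-K1 was 0.13 (-0.56 to 0.82), and it was -0.049 without Dnmt1 KO replicate 1 and -0.0041 without Dnmt1 fl/fl replicate 1, against 0.28 in the fits that each left out 1 of the other samples. The ratio of H2-K1 to H2-D1 counts, which needs no scaling between samples, was 0.427 and 0.477 in fl/fl and 0.407 and 0.431 in KO samples, with overlapping samples.

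B2m, the light chain, was at 2962 and 3160 CPM in Dnmt1 fl/fl and at 3393 and 2924 CPM in Dnmt1 KO macrophages. The KO samples were the highest and the lowest of the 4, and the log2 fold change of 0.05 (-0.59 to 0.68) was smaller than the replicates' pooled log2 SD of 0.12. Its sign was not stable, at -0.068 without Dnmt1 KO replicate 1, -0.033 without scaling beyond the library total and -0.10 after a correction for transcript length. H2-K1, H2-D1 and B2m together made up 1.19% and 1.35% of all counts in fl/fl and 1.42% and 1.28% in KO samples, again overlapping.

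**Figure D2:**
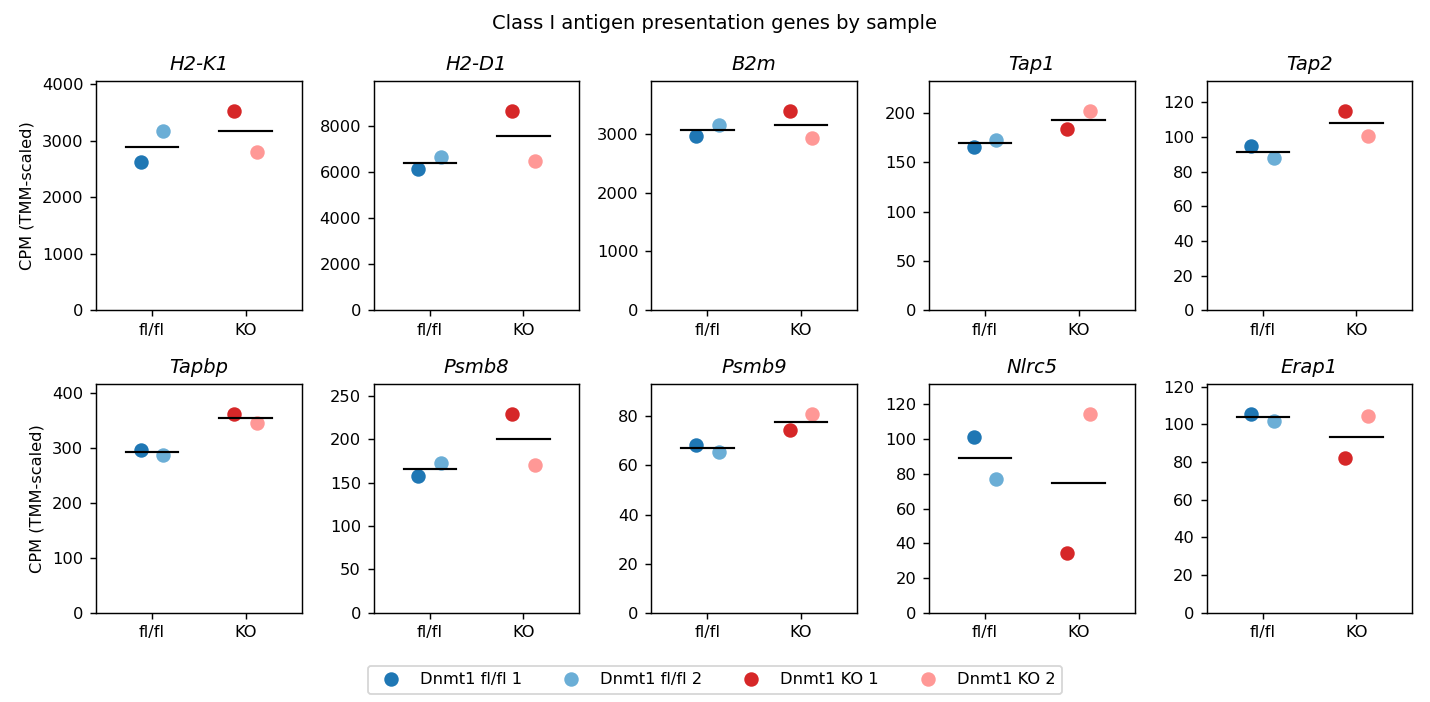
TMM-scaled CPM of the 10 genes in the 4 samples, each panel with its own linear axis from 0, points for single samples and a line at the mean of each genotype. Tap1, Tap2, Tapbp and Psmb9 have both KO samples above both fl/fl samples, and Nlrc5 is at 34.4 CPM in Dnmt1 KO replicate 1 against 77.1 to 115 CPM in the others.

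Tapasin and both transporter chains had higher values in both KO samples than in either fl/fl sample. Tapbp, which bridges empty class I molecules to the transporter, was at 297 and 288 CPM in Dnmt1 fl/fl and at 363 and 347 CPM in Dnmt1 KO macrophages. The log2 fold change of Tapbp was 0.28 (-0.26 to 0.82), and across the fits that each left out 1 sample it ran from 0.24 to 0.31. Its pooled SD between replicates was 0.04. With 2 samples per genotype, a difference without overlap always exceeds that SD, so the comparison only repeats the order of the samples. The edgeR standard error of 0.22 draws on the spread of all genes and is much wider than these 4 values alone would give.

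Tap1 was at 165 and 173 CPM in Dnmt1 fl/fl and at 184 and 202 CPM in Dnmt1 KO macrophages. Its log2 fold change was 0.19 (-0.34 to 0.72), and 0.12 without Dnmt1 KO replicate 2. Tap2, the other chain of the transporter, was at 94.9 and 87.9 CPM in Dnmt1 fl/fl and at 115 and 101 CPM in Dnmt1 KO macrophages. Its log2 fold change was 0.24 (-0.30 to 0.78), and 0.14 without Dnmt1 KO replicate 1. The pooled SD between replicates was 0.08 for Tap1 and 0.11 for Tap2, smaller than each difference as the order of the samples requires. Neither difference passed the test (adjusted p = 1.00 from edgeR for each). Without scaling beyond the library total the samples of Tap1 and Psmb9 overlapped and those of Tap2 and Tapbp did not, where 16.5% of all genes did not overlap.

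Psmb9, an immunoproteasome subunit that faces Tap1 across their shared upstream stretch, was at 68.4 and 65.6 CPM in Dnmt1 fl/fl and at 74.3 and 81.1 CPM in Dnmt1 KO macrophages. Both KO samples were above both fl/fl samples, with a log2 fold change of 0.21 (-0.30 to 0.73). The pooled SD of 0.07 adds nothing to that order, for the reason given for Tapbp. After the correction for transcript length the order no longer held, with 74.3 and 63.9 CPM in fl/fl and 64.9 and 87.9 CPM in KO samples. The 5 members whose samples did not overlap after that correction were H2-D1, Tap1, Tap2, Tapbp and Psmb8, all higher in KO samples, against 18.8% of all genes not overlapping in either direction. The ratio of Tap1 to Psmb9 counts was 2.42 and 2.63 in fl/fl and 2.47 and 2.49 in KO samples, and after the length correction it was 2.22 and 2.65 against 2.93 and 2.28.

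Psmb8, the other immunoproteasome member, was at 158 and 173 CPM in Dnmt1 fl/fl and at 230 and 171 CPM in Dnmt1 KO macrophages. Its value was high in Dnmt1 KO replicate 1 only, the log2 fold change being 0.28 (-0.34 to 0.89) with all samples, 0.04 without that library and 0.47 without Dnmt1 KO replicate 2. The constitutive subunits that Psmb8, Psmb9 and Psmb10 replace are Psmb5, Psmb6 and Psmb7, and all 3 were highest in Dnmt1 KO replicate 1 and lowest in Dnmt1 KO replicate 2. Psmb5 was at 53.2 and 70.1 CPM in fl/fl and at 121 and 45.9 CPM in KO samples, Psmb6 at 118 and 121 against 228 and 109 CPM, and Psmb7 at 70.5 and 78.3 against 116 and 57.5 CPM.

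Immunoproteasome subunits were therefore also set against their counterparts within each library. The log2 ratio of Psmb8 to Psmb5 counts was 1.57 and 1.30 in Dnmt1 fl/fl and 0.93 and 1.90 in Dnmt1 KO macrophages. That of Psmb9 to Psmb6 was -0.78 and -0.88 in fl/fl and -1.62 and -0.43 in KO samples, and that of Psmb10 to Psmb7 was 0.06 and -0.01 against -0.31 and 0.43. In all 3 ratios the KO samples were the lowest and the highest of the 4, and the genotype means differed by -0.03, -0.19 and 0.03. The exact two-sided permutation test gave p = 1 and adjusted p = 1 for each of the 3 ratios, and with n = 2 per genotype it cannot give a p under 0.3333, so it could not have passed. The gap between the KO replicates was larger than any genotype difference, and without Dnmt1 KO replicate 1 the differences were 0.46, 0.40 and 0.41, against -0.51, -0.78 and -0.34 without Dnmt1 KO replicate 2.

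**Figure D3:**
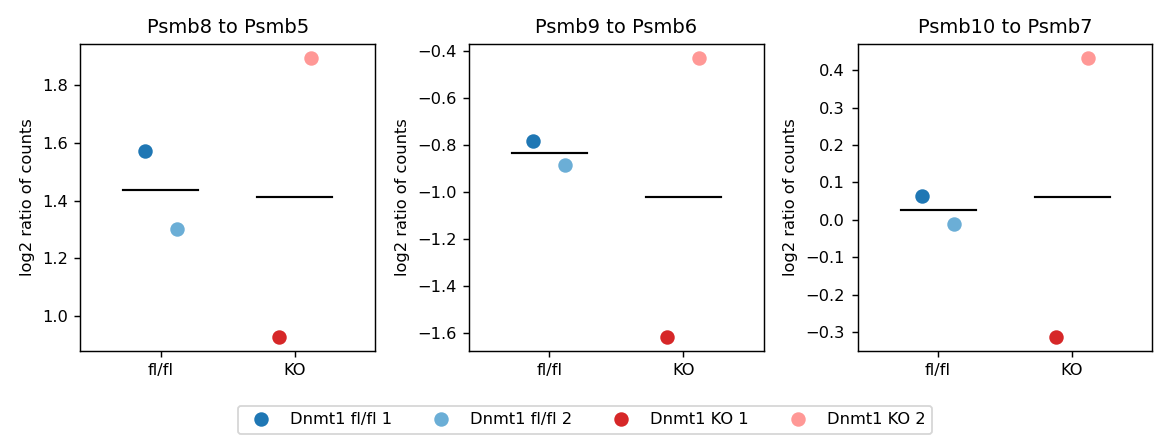
Log2 ratio of counts of each immunoproteasome subunit to the constitutive subunit it replaces, with points for samples and a line at each genotype mean. In each panel Dnmt1 KO replicate 1 is the lowest and Dnmt1 KO replicate 2 the highest sample, as in Psmb8 to Psmb5 at 0.93 and 1.90.

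Erap1, the aminopeptidase that trims peptides in the endoplasmic reticulum, was at 106 and 102 CPM in Dnmt1 fl/fl and at 82.2 and 104 CPM in Dnmt1 KO macrophages. Its log2 fold change of -0.15 (-0.73 to 0.42) rested on Dnmt1 KO replicate 1 and was 0.0058 without it. The longest coding transcript of Erap1 has 5644 bases, and after the correction for transcript length its samples were at 96.9, 101, 98.5 and 94.9 CPM, a spread within which no sample was set apart.

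Nlrc5 varied most among the members. It was at 101 and 77.1 CPM in Dnmt1 fl/fl and at 34.4 and 115 CPM in Dnmt1 KO macrophages, so the KO samples were the lowest and the highest of the 4. The KO replicates of Nlrc5 differed by 1.74 on the log2 scale, a gap that 743 of the 12542 genes tested (5.92%) exceeded, while the gap of the other members between the same samples was at most 0.43. The log2 fold change of Nlrc5 was -0.26 (-1.64 to 1.12), and -0.49 from limma-voom. Its direction rested on single libraries, since it was 0.36 without Dnmt1 KO replicate 1 and -1.37 without Dnmt1 KO replicate 2, where it had an adjusted p of 0.00873 from edgeR with 1 KO sample that is assumed to vary like the fl/fl samples. In that fit 1 of 10 members and 8.32% of all genes were called. Nlrc5 has the longest coding transcript of the members, with 7578 bases, and after the correction for length its KO samples were at 44.2 and 99.6 CPM and its fl/fl samples at 89.3 and 78.3 CPM, the gap between KO replicates being 1.17.

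Of the other members, only Erap1 shared its lowest sample with Nlrc5, and after the length correction only B2m did, at 2746 CPM against 3086 to 3351 CPM. In Dnmt1 KO replicate 1, where Nlrc5 was lowest, H2-K1, H2-D1, B2m, Tap2, Tapbp and Psmb8 were at their highest, as were 38.8% of all genes tested. The ratio of Tap1 to Nlrc5 counts was 1.63 and 2.24 in fl/fl samples and 5.34 and 1.76 in KO samples. Genes of class II presentation and of the interferon gamma response were lowest in the same library as Nlrc5. Ciita, the class II transactivator and a relative of Nlrc5, was at 96.1 and 44.6 CPM in Dnmt1 fl/fl and at 18.5 and 113 CPM in Dnmt1 KO macrophages, and all 8 class II genes had their lowest value in Dnmt1 KO replicate 1. So did 19 of the 24 interferon gamma response genes tested, such as Gbp2 at 87.7 and 65.7 CPM in fl/fl and 37.1 and 161 CPM in KO samples. Over all genes tested 39.6% were lowest in that library, and 2 of the 10 members, Nlrc5 and Erap1, were. B cells and dendritic cells also express class II, and 7 of 8 markers in each of those lists had their lowest value in Dnmt1 KO replicate 1. The dendritic cell sum was 118 CPM there, within the range of the other samples, but 92.6 CPM of it was Itgax, the 1 marker of that list that was highest there. The part of B cells and dendritic cells in these values was not tested.

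**Figure D4:**
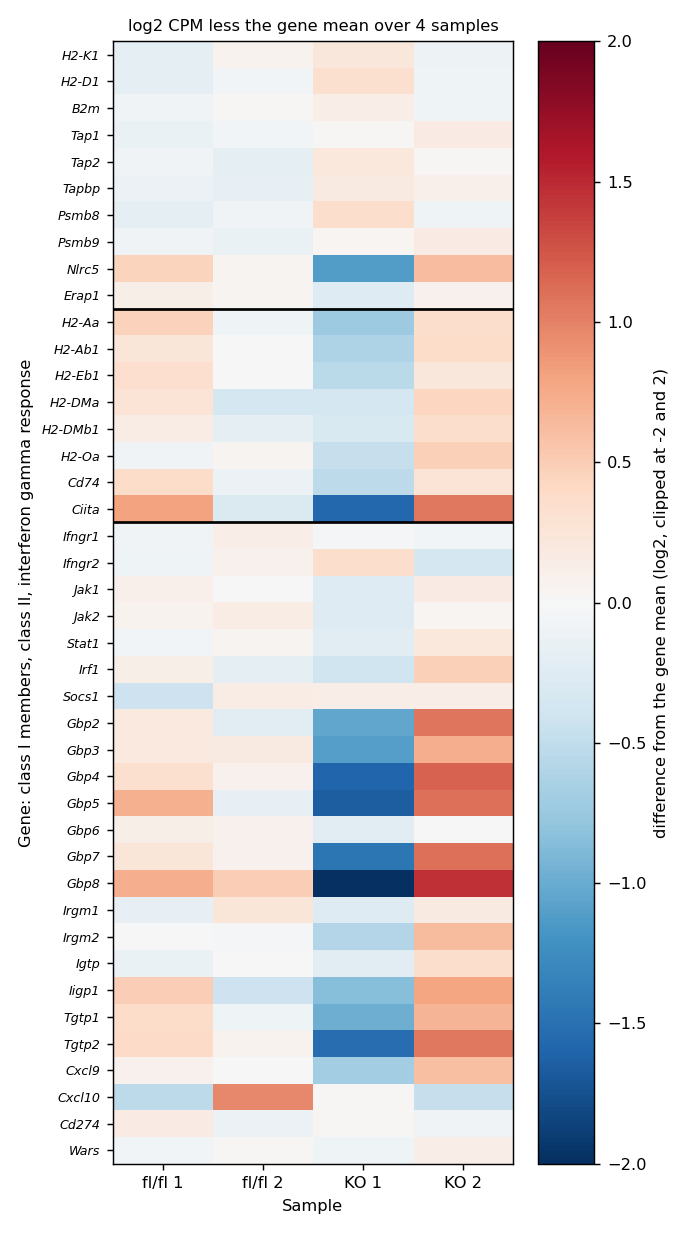
Log2 CPM of each gene less its own mean over the 4 samples, in colour from -2 to 2, for the class I members (top block), 8 class II genes (middle) and 24 interferon gamma response genes (bottom). Nlrc5, Ciita and most guanylate-binding protein (Gbp) genes are blue in Dnmt1 KO replicate 1 and red in Dnmt1 KO replicate 2, while H2-K1, H2-D1 and Psmb8 are pale red in replicate 1.

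Levels between genes were compared as CPM per kilobase of the longest coding transcript. The order depends on the transcript chosen, which the SDs do not cover. B2m (860 bases) was above H2-D1 (2102 bases) only after this division, the fl/fl means in CPM being 3061 and 6399. In Dnmt1 fl/fl macrophages B2m was at 3559 ± 162 (SD, n = 2), H2-D1 at 3044 ± 181 and H2-K1 at 1790 ± 245, and no samples of these neighbours overlapped. Psmb8 at 102 ± 6.23 and Tapbp at 101 ± 1.99 did not differ beyond their spread. Tap1 followed at 57.3 ± 1.81, Psmb9 at 49.6 ± 1.48, Tap2 at 26.6 ± 1.45, Erap1 at 18.4 ± 0.512 and Nlrc5 at 11.8 ± 2.24, each with samples apart from its neighbours. The order was the same in Dnmt1 KO macrophages, where the samples of B2m (3672 ± 386) and H2-D1 (3611 ± 732) and of Erap1 (16.5 ± 2.76) and Nlrc5 (9.83 ± 7.49) also overlapped. The chains of the surface complex thus led the order and the transactivator ended it in both genotypes.

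Among the wider class I genes the samples of a few separated and none passed the test. Of 21 nonclassical class I and CD1 genes 16 were in the table and tested, with 0 called at an adjusted or an unadjusted p under 0.05 from edgeR, a median log2 fold change of 0.16, and 4 (H2-T22, H2-T23, H2-M3 and Hfe) with both KO samples above both fl/fl samples, an order found in 8.14% of all genes tested. H2-T22 shared 31.5% of its 100-base stretches with other genes, so its counts are uncertain. H2-T23, which encodes Qa-1, a ligand of inhibitory receptors on NK cells, was at 582 and 502 CPM in fl/fl and 606 and 587 CPM in KO samples. The ends of that list were H2-Q1, at 0.239 to 0.805 CPM with a log2 fold change of 0.64, and H2-K2, at 61.7 and 59.7 CPM in fl/fl and 17.7 and 66.0 CPM in KO samples with one of -0.54. Of 22 genes of peptide supply and loading, 0 were called at either threshold and the median was 0.10, with Lap3 not overlapping and higher, Nrd1 not overlapping and lower, Sec61b highest at 0.53 and Psme2b, a copy of the proteasome activator gene Psme2, lowest at -0.39. The 15 transcription factors of class I genes ran from 0.29 for Atf1 to -0.20 for Rfx5, a subunit of the complex at the X box, with a median of 0.03 and 0 called at either threshold. Irf1, an interferon-induced activator of class I genes, was at 88.9 and 71.4 CPM in fl/fl and 62.4 and 114 CPM in KO samples. The interferon gamma response genes (24 of 26 tested) had a median of 0.02, with Jak2 and Gbp6 not overlapping and lower, from Gbp2 at 0.37 to Cxcl10, at 0.487 to 1.36 CPM, at -0.61, and the class II genes one of -0.13, from H2-DMa at 0.10 to H2-Aa at -0.30, again with 0 called. The 3 constitutive subunits had a median of 0.43 and overlapping samples. Several of these values turned on the KO libraries. Without Dnmt1 KO replicate 1 the median was -0.37 for the constitutive subunits, -0.0032 for peptide supply and loading, 0.45 for the interferon gamma response and 0.29 for class II, and without Dnmt1 KO replicate 2 these medians were 0.93, 0.19, -0.38 and -0.69. The median of the nonclassical genes stayed between 0.11 and 0.12 and that of the transcription factors between -0.032 and 0.030 in the same fits. Of the genes at the ends of the lists, H2-K2, Psme2b, Rfx5 and H2-Aa were above 0 without Dnmt1 KO replicate 1 (0.12, 0.50, 0.21 and 0.13), and Sec61b, Atf1, Psmb6 and Psmb7 were below 0 (-0.13, -0.18, -0.13 and -0.37). Without Dnmt1 KO replicate 2, H2-Q1, Gbp2 and H2-DMa were below 0 (-0.23, -1.05 and -0.35).

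The 5 genes closest to the mean profile of the members over the 4 samples were Brat1, Camk1, Msl1, Sting1 and Akt1s1, by the Euclidean distance between log2 CPM values centred on each gene's mean (0.0114 for Brat1 to 0.0343 for Akt1s1, among 8447 genes with a mean of at least 10 CPM). The members themselves lay farther from that mean, from 0.12 for Tap1 to 1.34 for Nlrc5, and 2420 other genes lay closer to it than the median member, so the mean profile stands for few of the 10 genes. Tap1 and Psmb9, at 0.12 and 0.13, were the members nearest to it.

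**Figure D5:**
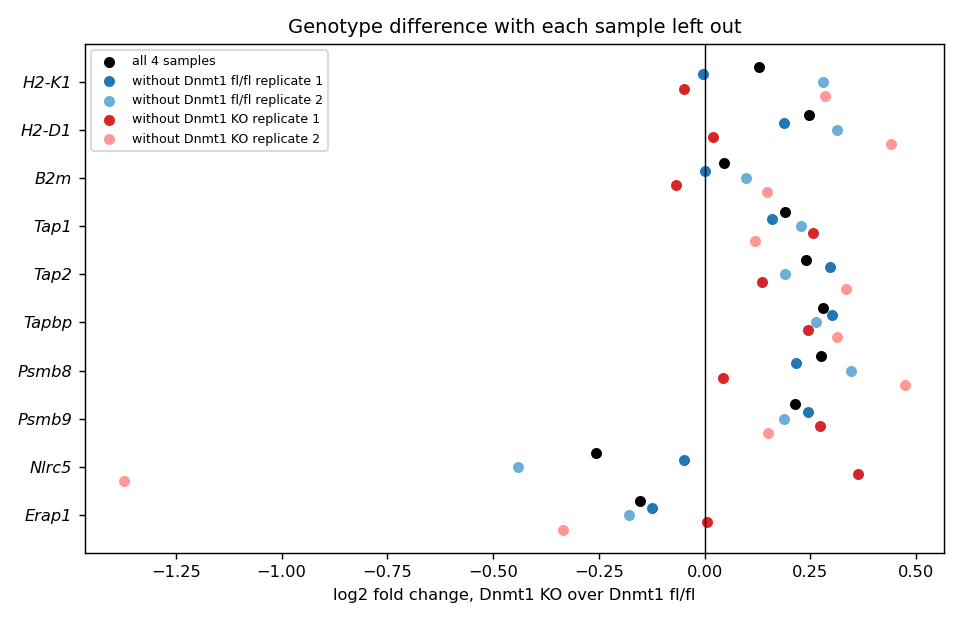
Log2 fold change of Dnmt1 KO over Dnmt1 fl/fl for each gene with all 4 samples (black) and with each sample left out (colours). Nlrc5 runs from -1.37 to 0.36, Tapbp from 0.24 to 0.31, and H2-K1, B2m, Nlrc5 and Erap1 fall on both sides of 0.

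Shared sequence limits some of these values. No 100-base stretch was common to transcripts of H2-K1 and H2-D1 in the GENCODE annotation of GRCm38, and stretches shared with any gene made up 0.957% of H2-K1 and 3.59% of H2-D1. The share was 14.8% in Tapbp, mostly with Gm19412, 10.02% in Erap1 with Cast, 8.05% in Psmb8 with Gm20496 and 4.99% in Tap2, and it was 1.93% in Tap1 and 2.73% in Psmb9, which have annotated transcripts that overlap at their shared upstream stretch. B2m and Nlrc5 shared none, and they were the 2 members with whole-number counts in all 4 samples as deposited, with no tolerance, while Psmb8 was within 0.01 of a whole number in each. The library kit is not stated to keep strand, so reads of overlapping genes cannot be told apart.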

How the data were processed

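RNA of 2 Dnmt1 fl/fl and 2 Dnmt1 KO peritoneal macrophage samples was sequenced as 150 bp paired-end reads. Per the labels, HISAT2 2.0.5, mm10 and featureCounts 1.5.0-p3 were used, and the gene annotation is not given in the sources used here. The authors deposited estimated counts per gene without normalization, of which 72.6% to 76.4% per sample were exactly whole. A shorter deposited table, rows of the full one that the authors selected on fold change, was not used. No gene in the table is at 0 in any sample.

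Counts were rounded, filtered with filterByExpr and scaled by TMM in edgeR 4.0.16 (R 4.3.3), and genotypes were compared with its quasi-likelihood F-test (two-sided, Benjamini-Hochberg over 12542 genes, common dispersion 0.0837) without a replicate term. Intervals use the quasi-likelihood standard error. At the depths found, 3 counts correspond to 0.124 to 0.148 CPM, a floor for counting error only. The code was tested on simulated counts, which called 1.0% of genes with a simulated log2 change of 1 at the estimated dispersion (12557 genes tested), 86.7% with a change of 2 (12537 genes) and, at a dispersion of 0.01, 82.8% with a change of 1 (12499 genes). Only a small random subset of genes was given a change, and the percentages are of that subset.

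Other settings tried were DESeq2 1.42.0, voom in limma 3.58.1, different scalings and filters, a replicate block, leaving out each sample, and removal of a loess trend (span 0.5) of each library against the longest coding transcript in GENCODE M21, which 98.5% of genes had. Ratios were compared in SciPy 1.17.1. Members, gene lists and tests were chosen with earlier results of these data known. Named genes are all members, Dnmt1, the ends of each list of pathway genes, genes whose samples did not overlap, and the 5 genes with the profile most like the members' mean. H2-T23, Irf1, Ciita and Csf1r were chosen after their values were seen.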

Additional observations from a re-analysis of the deposited data

How the results depend on the processing

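The tools, filters and scalings run on all 4 samples left the number of members called at 0. Of all genes, DESeq2 called 1, limma-voom and the other filters and scalings 0, and the replicate block 0. Same-numbered samples did not deviate together (correlation of deviations -0.35 across genes). With the replicate block the median log2 fold change of the members was 0.20, and with the crossed pairing, added after that correlation was seen, 3 genes and 0 members were called. Without scaling beyond the library total the number of members whose samples did not overlap was 2 in place of 4 (16.5% of all genes against 16.7%). B2m changed sign, to -0.033 without that scaling and to -0.10 with the length correction.

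Leaving out 1 sample at a time gave 0 to 1061 genes called, 0 to 1 member called, 4 to 10 members whose samples did not overlap, and a member median of 0.0895 to 0.22. The extremes of 1061, 1 and 10 came without Dnmt1 KO replicate 2 and the median of 0.0895 without Dnmt1 KO replicate 1. In these fits 40.1% to 82.8% of all genes did not overlap, the 82.8% being without Dnmt1 KO replicate 2. Single genes ran from -0.049 to 0.28 for H2-K1, -0.068 (without Dnmt1 KO replicate 1) to 0.15 for B2m, -1.37 to 0.36 for Nlrc5 and -0.33 to 0.0058 for Erap1. The genotype difference in log2 ratio ran from -0.51 to 0.46 for Psmb8 to Psmb5, -0.78 to 0.40 for Psmb9 to Psmb6 and -0.34 to 0.41 for Psmb10 to Psmb7. The cause of these shifts was not tested. Every member had at least 681 counts in each sample.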
